A study of Mus musculus with 6 samples.

Results

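The transcripts of 10 transcription factors and cofactors of endothelial cells (ECs) were followed in single cells of mouse retina: Erg, Fli1, Ets1, Ets2, Sox7, Sox17, Sox18, Lmo2, Mef2c and Foxo1. The genes were taken by name, and all 10 were present among the 20822 genes of the count table. The cells came from mice at postnatal day 14 (P14) of oxygen-induced retinopathy (OIR), in which a stay of the pups in high oxygen removes retinal capillaries and the return to room air sets off regrowth and abnormal vessels. The design held 3 replicates of eNOS+/+ mice (C57BL/6) and 3 of eNOS-/- mice, which carry a knockout allele of Nos3, the endothelial nitric oxide synthase gene, in every cell. From 3 to 5 retinas were pooled for a replicate, cells were enriched with beads against CD31, and RNA was captured by Drop-seq, a droplet method that tags the 3' end of each RNA molecule with a cell barcode and a unique molecular identifier (UMI).

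ETS factors bind a short purine-rich core and sit on many promoters and enhancers that are active in ECs. ERG and FLI1 hold the mature endothelial state, ETS1 and ETS2 are widely expressed members of the same family, and SOX7, SOX17 and SOX18 form the SOXF group, which acts in arterial and angiogenic programmes. LMO2 has no DNA-binding domain and bridges TAL1, GATA2, LDB1 and E proteins, MEF2C is a MADS-box factor shared by muscle, microglia and endothelium, and FOXO1 is a forkhead factor that Akt keeps out of the nucleus and that restrains endothelial growth.

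In the GENCODE M21 annotation of GRCm38 all 10 are protein-coding genes. Erg (chromosome 16, 95359169 to 95586593, minus strand) and Ets2 (chromosome 16, 95702075 to 95721051, plus strand) lie 115.5 kb apart, and Fli1 (chromosome 9, 32422204 to 32542861, minus strand) and Ets1 (chromosome 9, 32636221 to 32757820, plus strand) lie 93.4 kb apart. The SOXF genes are spread over chromosome 14 (Sox7, 63943673 to 63950732), chromosome 1 (Sox17, 4490931 to 4497354) and chromosome 2 (Sox18, 181669836 to 181671640). Lmo2 lies on chromosome 2 (103957986 to 103981878), Mef2c on chromosome 13 (83504034 to 83667080) and Foxo1 on chromosome 3 (52268336 to 52353221). Exons of Sox17 and Foxo1 overlap exons of Gm37587 and Gm20402 on the opposite strand, and neither of those is listed in the count table.

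RefSeq promoter windows (GRCm38.p6) were at hand for Erg, Ets2, Mef2c and Foxo1, with 8 starts between them. The 200 bases before the most upstream start are shown for Erg, which was higher in ECs than in the other cells together in every replicate, and for Mef2c, which was shared with immune and mural cells. Capitals mark the matches to the motifs below.

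Erg, chr16:95586594-95586793, minus strand: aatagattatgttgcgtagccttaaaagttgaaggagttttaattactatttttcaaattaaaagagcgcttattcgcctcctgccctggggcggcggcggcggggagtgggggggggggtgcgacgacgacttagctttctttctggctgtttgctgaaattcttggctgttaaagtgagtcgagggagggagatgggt
Mef2c, chr13:83503834-83504033, plus strand: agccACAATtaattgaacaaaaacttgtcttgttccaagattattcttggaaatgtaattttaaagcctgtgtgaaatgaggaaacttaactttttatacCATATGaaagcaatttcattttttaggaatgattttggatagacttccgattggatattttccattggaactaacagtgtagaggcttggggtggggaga

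Both strands of the 250 bases before each start were searched for an ETS core (CCGGAA), a SOX core (ACAAT), a FOXO site (GTAAACA) and an E-box (CANNTG, which can share the bases CAAT with the SOX core). The ETS core was in 0 of the 8 windows of these genes and in 12% of all 32851 windows, and the FOXO site was in 0 of 8 and in 3.17%. The SOX core was in 2 of 8 windows, 1 of Mef2c and 1 of Erg, against 27.7% of all. An E-box was in 4 of 8 windows (2 of Mef2c and 1 each of Erg and Foxo1), against 66.2% of all. These letters describe the windows, and no binding was measured.

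The table held 10361314 UMIs of 8944 cells, from 617246 to 3350799 per replicate. In the deposited labels 5925 of the cells were ECs: 1428 Tip ECs, 3335 Structural ECs and 1162 Proliferative ECs. The paper gives fewer ECs in each genotype for the same number of cells, and the reason for the difference is not known here. A list of 10 EC markers summed to 6636 to 9933 UMIs in 1000000 (written CPM) in the EC subtypes, with every marker above 0 in every replicate. Mural markers in Structural ECs summed to 3823 CPM in eNOS-/- replicate 3 and to 30.6 to 172 CPM in the other replicates, and haemoglobin genes there summed to 22522 CPM in eNOS+/+ replicate 2 and to 34.9 CPM in eNOS+/+ replicate 1. A list of 6 B cell markers summed in Structural ECs to 200, 56.7 and 47.9 CPM in eNOS+/+ replicates 1 to 3 and to 312, 266 and 306 CPM in eNOS-/- replicates 1 to 3, so that it separated the genotypes, as it did over all ECs (22.8 to 98.2 against 124 to 170 CPM). Only 3 cell barcodes occurred in more than 1 replicate, but 2088 ECs shared 11 of their 12 barcode bases with another cell of the replicate. The library names in the labels carry consecutive numbers, the lower 3 of which belong to eNOS-/- replicates 1 and 2 and eNOS+/+ replicate 1, and the higher 3 to eNOS-/- replicate 3 and eNOS+/+ replicates 2 and 3. Across genes, deviations from the genotype means in all ECs correlated at 0.09 to 0.13 between eNOS+/+ and eNOS-/- replicates of the same number range and at -0.17 to -0.07 between ranges (9 pairs, a description that uses the same genes in every pair). Deviations from a genotype mean cancel out within the genotype, so the 9 pairs are not independent. Opposite signs within and between ranges are partly forced by this. The labels do not say what the numbers mark. Nos3 UMIs did not check the genotype labels, with 19.4, 36.6 and 23.6 CPM in all ECs of the eNOS+/+ replicates and 21.2, 16.1 and 32.8 CPM in those of eNOS-/- (adjusted p = 0.969, edgeR).

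In ECs, 9 of the 10 genes stood above the other cells of the same replicate in 6 of 6 replicates, and Mef2c was so in 5 of 6. The share of all genes with this order was not counted, so these counts are not read as particular to the 10 genes. UMIs were summed over the cells of a label within a replicate and divided by that sum's total, so that levels are CPM of a sum. Since the labels were drawn from clusters of the same UMIs, levels between cell types are a description without a test, and CPM of 3' tags are compared between cells, not between genes. The ratio of the mean level in ECs to that in all other cells was 22.9 for Sox17, 15.4 for Sox18, 9.43 for Erg, 9.32 for Lmo2, 8.45 for Sox7 and 8.15 for Fli1. It was 4.22 for Ets2, 3.11 for Ets1, 2.99 for Foxo1 and 2.20 for Mef2c. These ratios depend on the mix of other cells, which differed between replicates. Mural cells gave 96487 of the 128879 UMIs of other cells in eNOS-/- replicate 3. Ets1 in other cells stood at 230 ± 235 CPM (SD, n = 6 replicates), from 18.3 to 691 CPM.

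Among the ETS factors, Erg stood at 277 ± 23.0 CPM in all ECs (SD, n = 6 replicates) and at 29.7 ± 37.4 in mural cells and 28.4 ± 30.7 in immune cells (SD, n = 5 replicates with 10 or more cells for both). These levels rest on 9 mural and 6 immune UMIs. In neurons Erg stood at 106 ± 151 CPM (n = 6) from 14 UMIs, from 0 to 386 CPM, and ECs were higher in 5 of 6 replicates. Fli1 stood at 504 ± 81.3 CPM in ECs (n = 6) and at 114 ± 68.4 in immune cells (n = 5), with 23 UMIs, and ECs were higher in all 5 replicates. Ets1, in contrast, was found in mural cells at 638 ± 168 CPM (n = 5, 197 UMIs) against 717 ± 41.5 in ECs (n = 6), and ECs were the higher of the 2 in only 3 of 5 replicates, so that the 2 levels did not differ beyond their spread. In neurons Ets1 stood at 63.5 ± 64.0 CPM (n = 6). Ets2 stood at 109.5 ± 9.58 CPM in ECs (n = 6) and at 35.6 ± 35.7 in mural cells (n = 5, 15 UMIs).

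Of the SOXF genes, Sox17 and Sox18 had the 2 highest ratios. Sox17 reached 183 ± 63.9 CPM in ECs (n = 6) and had 17 UMIs in all 3019 other cells together, 8.0 ± 7.38 CPM (n = 6). Sox18 reached 261 ± 29.5 CPM in ECs (n = 6), with 0 UMIs in immune cells, where 3 UMIs would have been 17.9 CPM. In mural cells it stood at 7.16 ± 6.62 CPM (n = 5). All mural cells together held 12 UMIs of Sox18 (38.2 CPM), counting the 3 cells of eNOS+/+ replicate 1, which the mean leaves out. Sox7 reached 158 ± 22.9 CPM in ECs (n = 6) and 46.8 ± 39.4 in mural cells (n = 5, 15 UMIs).

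Lmo2, which also serves blood cell development, stood at 289 ± 81.0 CPM in ECs (n = 6) and at 89.6 ± 59.1 in immune cells (n = 5, 20 UMIs). The order was turned for Mef2c, a factor of microglia as well: immune cells held 486 ± 112 CPM (n = 5) and ECs 248 ± 29.5 (n = 6), with immune cells higher in 5 of 5 replicates. Mural cells held 263 ± 51.2 CPM of Mef2c (n = 5), higher than ECs in 3 of 5 replicates, a difference within the spread. Foxo1 stood at 95.2 ± 18.7 CPM in ECs (n = 6) and at 112 ± 118 in neuroglia (n = 5), the latter from 8 UMIs.

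**Figure D1:**
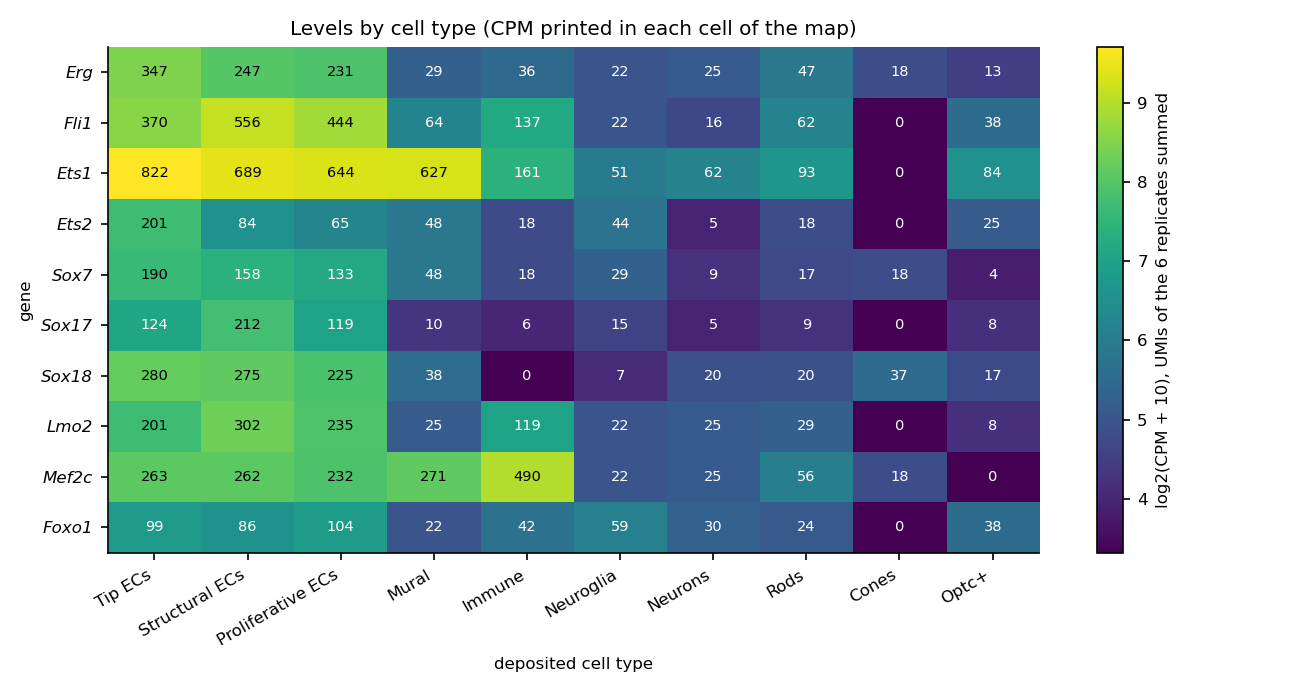
Levels of the 10 genes (rows) in the 10 deposited cell types (columns), as CPM of the UMIs summed over the 6 replicates; colour is log2(CPM + 10) and the number in each cell is the CPM. The 3 EC columns are the brightest for most rows, while Ets1 is also high in mural cells (627 CPM) and Mef2c is highest in immune cells (490 CPM).

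Shares of cells with a UMI gave the same picture at a fixed depth. Cells were thinned to 500 UMIs each and shallower cells were left out, which kept 3545 of 5925 ECs, with a median of 1406 UMIs before thinning, and 421 of 1508 rods, with a median of 657. Rods served as the type for comparison, and no level of free RNA was measured. Whether rod UMIs of these genes came from free RNA, from other cells of the same droplet or from the rods themselves was not tested. At least 1 of the 10 genes was found in 72.3% of ECs, 40.8% of mural cells, 35.1% of immune cells and 11.2% of rods, and 2 or more were found in 33.7% of ECs and 1.43% of rods.

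Ets1 was found in 29.5% of ECs (95% Wilson interval 28.0 to 31.0%) and in 4.28% of rods (2.72 to 6.66%). Erg was found in 12.9% of ECs (11.8 to 14.0%) and in 1.43% of rods (0.655 to 3.07%). Sox17 was found in 7.48% of ECs (6.66 to 8.39%) and in 0 of 421 rods, which allows a share of up to 0.713%. Every EC share lay above its rod share, the smallest gap being that of Foxo1, with 4.06% (3.46 to 4.76%) against 1.19% (0.508 to 2.75%). Mef2c was found in 26.3% of 114 immune cells (19.1 to 35.1%), 14.3% of 147 mural cells (9.54 to 20.9%) and 10.7% of ECs (9.69 to 11.7%). At full depth the shares were higher in ECs and little different in rods, for example 23.2% against 1.39% for Erg, with medians of 682 and 361 UMIs. The intervals cover counting error only.

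**Figure D2:**
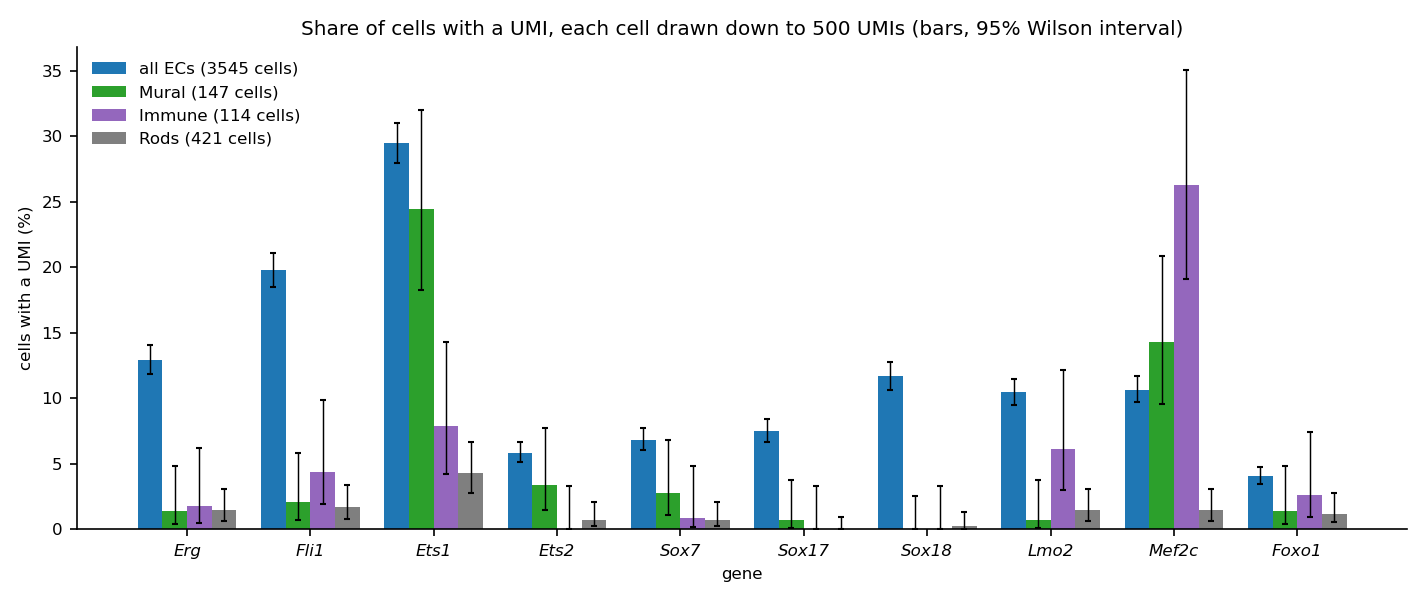
Share of cells with at least 1 UMI of each gene (%, bars with 95% Wilson intervals) in ECs, mural cells, immune cells and rods, at a common depth of 500 UMIs per cell. The EC bar is the tallest for 9 genes, the mural bar of Ets1 reaches 24.5%, and for Mef2c the immune bar (26.3%) and the mural bar (14.3%) exceed the EC bar (10.7%).

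Within the ECs the genes fell into different orders. Erg, Ets1 and Ets2 were highest in Tip ECs, the sprouting cells that the study marked by Angpt2, Adm and Apln. Erg ranged from 295 to 442 CPM in Tip ECs (median 355), from 225 to 264 in Structural ECs (median 248) and from 193 to 320 in Proliferative ECs (median 251). Tip ECs were higher than both other subtypes in 6 of 6 replicates, by 1.45 and 1.40 times, and the Tip and Structural ranges did not overlap. Structural and Proliferative ECs did not differ in Erg beyond their spread.

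Ets1 ranged from 760 to 892 CPM in Tip ECs (median 838), from 621 to 735 in Structural ECs (median 686) and from 499 to 765 in Proliferative ECs (median 620). Tip ECs were again higher in 6 of 6 replicates, by 1.22 and 1.33 times. Ets2 had the widest gap, with 90.8 to 241 CPM in Tip ECs (median 198), 72.4 to 101 in Structural ECs (median 87.7) and 25.6 to 111 in Proliferative ECs (median 61.9). Tip ECs were higher by 2.11 and 2.68 times, in 5 of 6 replicates each, the exception being eNOS+/+ replicate 2.

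Fli1, Sox17 and Lmo2 were highest in Structural ECs, the largest of the 3 subtypes. These sums also held more blood cell transcripts. B cell markers reached 312 CPM there, 7.01 CPM in Tip ECs and 4.83 CPM in Proliferative ECs. Haemoglobin genes reached 22522, 400 and 126 CPM in that order. Their part in the order of the subtypes was not tested. Sox17 ranged from 131 to 374 CPM in Structural ECs (median 223), from 96.4 to 166 in Tip ECs (median 127) and from 81.1 to 198 in Proliferative ECs (median 130). Although these ranges overlapped across replicates, Structural ECs were higher within each of the 6 replicates, by 1.90 times over Tip ECs and 1.76 times over Proliferative ECs.

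Lmo2 ranged from 210 to 454 CPM in Structural ECs (median 337), from 148 to 274 in Tip ECs (median 238) and from 135 to 400 in Proliferative ECs (median 254). Structural ECs were higher in 6 of 6 replicates, by 1.53 and 1.26 times. Fli1 ranged from 468 to 725 CPM in Structural ECs (median 569) and from 263 to 540 in Tip ECs (median 382), and Structural ECs were higher in 5 of 6 replicates against Tip ECs and in 6 of 6 against Proliferative ECs. The exception was eNOS-/- replicate 3, with 540 CPM in Tip ECs and 471 CPM in Structural ECs.

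Sox18 stood at 268 ± 42.2, 283 ± 47.7 and 211 ± 29.9 CPM in Tip, Structural and Proliferative ECs (SD, n = 6), with the Proliferative level below both others in 6 of 6 replicates and Tip above Structural in 3 of 6. The levels of Sox7 were, in that order, 183 ± 37.3, 154 ± 31.0 and 149 ± 44.7 CPM (n = 6), and Mef2c at 276 ± 62.0, 244 ± 40.5 and 221 ± 34.1 CPM (n = 6), orders that changed between replicates. Foxo1 stood at 98.1 ± 23.3, 82.9 ± 25.5 and 126 ± 68.1 CPM (n = 6). Its Proliferative level was above the Structural level in 6 of 6 replicates, yet 1 replicate (eNOS-/- 3, at 256 CPM from 78192 UMIs) held most of the spread.

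**Figure D3:**
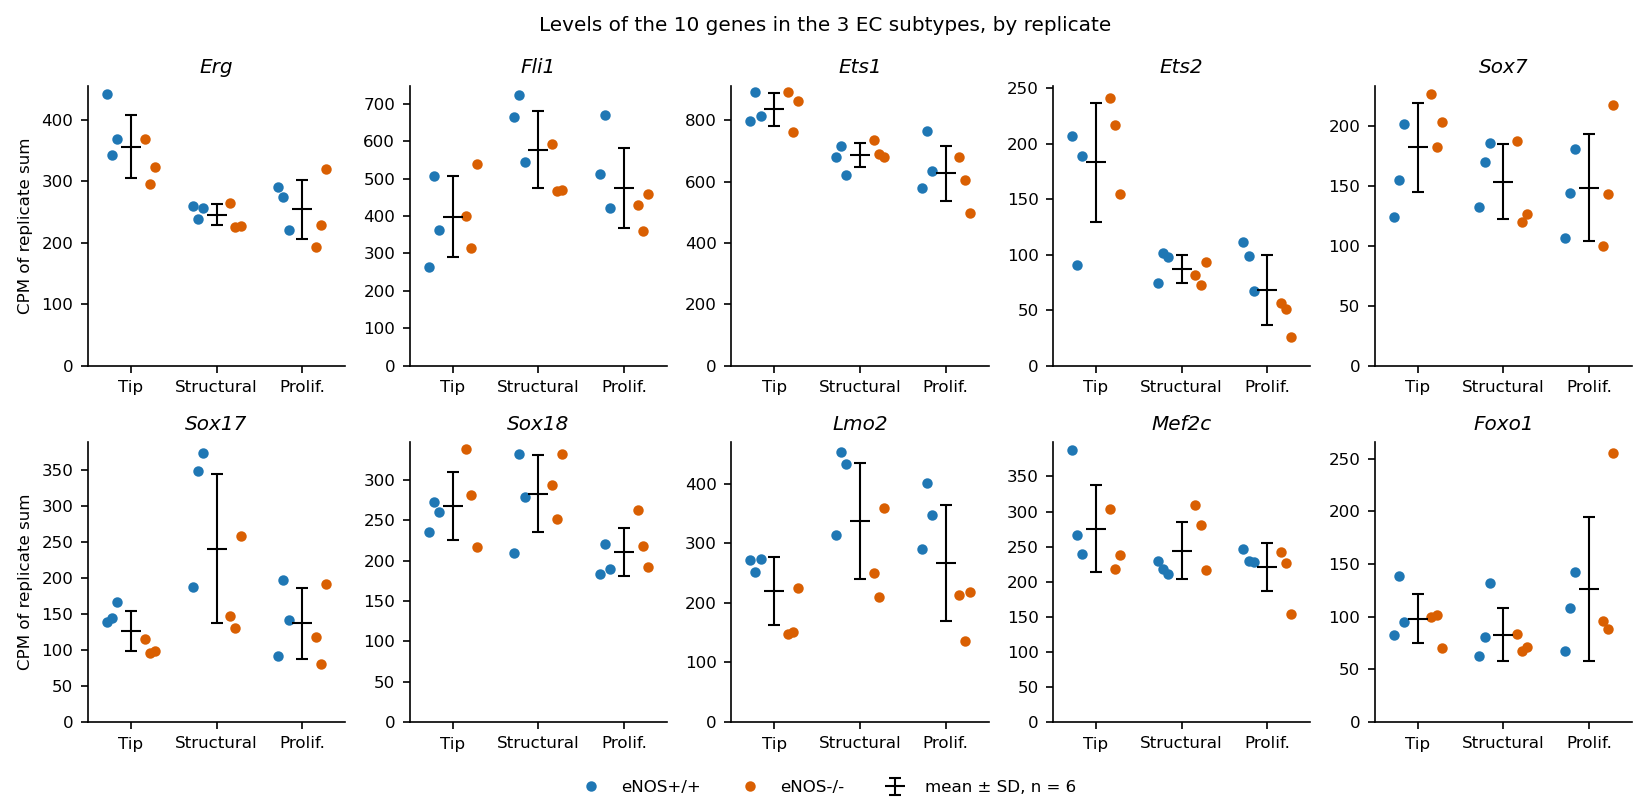
CPM of each gene (y axes, each from 0) in Tip, Structural and Proliferative ECs, with 1 point for each replicate (blue, eNOS+/+; orange, eNOS-/-) and the mean ± SD of 6 replicates in black. Erg, Ets1 and Ets2 are highest in Tip ECs, Sox17 and Lmo2 in Structural ECs, and the orange points of Lmo2 lie below the blue ones in each subtype except for eNOS-/- replicate 3 in Structural ECs.

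The other genes of the same pathways were read from fixed lists. Among 5450 genes tested in both Tip and Structural ECs, 9.98% were higher in Tip ECs in all 6 replicates, as 2 of the 10 members were (Erg and Ets1), and 7.69% were higher in Structural ECs in all 6, as 2 members were (Sox17 and Lmo2). Of 6 LMO2 partners tested in both, Tal1 (1.46 times) and Tcf4 (1.43 times) were higher in Tip ECs in all 6 replicates, and 0 had the order of Lmo2. Of 13 genes known to be bound by ERG, FLI1 or ETS1, 4 were higher in Tip ECs in all 6 (Vwf, Kdr, Pecam1 and Robo4) and 1 in Structural ECs (Tek). Of 6 SOXF targets, 2 were higher in Tip ECs (Dll4 and Nrp1) and 2 in Structural ECs (Plvap and Efnb2). Of 5 FOXO1 targets, 1 was higher in Tip ECs (Angpt2) and 1 in Structural ECs (Klf2), and Pik3ip1, which was not tested in Tip ECs, also stood higher in Structural ECs in all 6. Of 12 other endothelial factors, 2 were higher in Tip ECs (Bcl6b and Prdm1) and 5 in Structural ECs (Epas1, Klf2, Klf4, Foxp1 and Lef1). Of 6 other ETS factors, 1 went in each direction (Elk4 and Elf2). Of 3 other MEF2 and FOXO factors and class IIa deacetylases, 1 was higher in Tip ECs (Mef2a) and 0 in Structural ECs. Foxo3 of that list, tested in neither subtype, was higher in Tip ECs in 0 of 6 replicates (mean 7.01 CPM, against 15.2 CPM in Structural ECs). The genes named here were picked out of their lists after the values were seen, and the labels were drawn from clusters that could use them.

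Over the 10 cell types, the genes whose log2(CPM + 10) most resembled each member other than Foxo1 were taken from 7445 genes with at least 200 UMIs. The closest to Erg were Car5a and Adgrl4 (Pearson r = 0.991 and 0.990), to Sox17 Ramp2 and Ushbp1 (0.982 and 0.978), and to Ets2 Lrrc8c and Cxcr4 (0.983 and 0.971). Fli1 was closest to Swap70 and Prcp (0.985 and 0.977), Lmo2 to Prcp and Mfng (0.978 and 0.973), and the r between Fli1 and Lmo2 themselves was 0.957. Ets1 was closest to Lama4 and Cavin1 (0.976 and 0.9746), Sox7 to Fn1 and AU021092 (0.983 and 0.9749) and Sox18 to Pde8a and Rasa1 (0.976 and 0.963). Of these 9 members Mef2c had the least close matches, Litaf and Fes (0.938 and 0.937). Among the members the lowest r was 0.400, between Sox18 and Mef2c. Each r has 10 points, of which 3 are EC subtypes, and cell types with few cells (50 cones) have shallow sums.

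Between genotypes, none of the 10 genes passed the quasi-likelihood test of edgeR at 0.05 after Benjamini-Hochberg adjustment over all genes, in any EC subtype or in all ECs together. All 10 were tested in each fit. The background was as low, with 0.0181% of 5510 genes called in Tip ECs, 0.0264% of 7577 in Structural ECs, 0.0217% of 4607 for Proliferative ECs and 0.0211% of 9483 for all ECs. Without adjustment, 273, 418, 294 and 548 genes had a p under 0.05 in these fits. DESeq2 called 2, 3, 1 and 3 genes on the same sums, none of them among the 10. The median log2 fold change (eNOS-/- minus eNOS+/+) of the 10 genes was -0.06, -0.18, -0.14 and -0.13, beside 0.00, 0.01, 0.02 and 0.01 over all genes tested.

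Lmo2 had the lowest unadjusted p of the 10 in Tip ECs, Proliferative ECs and all ECs. In Tip ECs it stood at 272, 251 and 274 CPM in eNOS+/+ replicates 1 to 3 and at 148, 151 and 224 CPM in eNOS-/- replicates 1 to 3. The genotypes did not overlap, eNOS-/- being lower, with a log2 fold change of -0.67 (SE 0.27, 95% interval -1.21 to -0.12, adjusted p = 0.796, edgeR). In Proliferative ECs the values were 290, 400 and 347 CPM against 212, 135 and 217 CPM. Again they did not overlap, with a log2 fold change of -0.91 (SE 0.26, interval -1.45 to -0.38, adjusted p = 0.443, edgeR).

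In Structural ECs Lmo2 stood at 314, 454 and 433 CPM against 250, 210 and 359 CPM, and eNOS-/- replicate 3 lay above eNOS+/+ replicate 1, so the groups overlapped. The B cell markers of these sums were higher in every eNOS-/- replicate (266 to 312 against 47.9 to 200 CPM), and their part in the result was not tested, while in Tip and Proliferative ECs they summed to 0 to 7.01 CPM in either genotype. The log2 fold change of Lmo2 in Structural ECs was -0.59 (SE 0.25, interval -1.13 to -0.06, adjusted p = 0.868, edgeR). Over all ECs the values were 297, 378 and 369 CPM against 217, 174 and 297 CPM, from 245, 248, 562, 502, 423 and 145 UMIs. The highest eNOS-/- value (296.9 CPM) lay just under the lowest eNOS+/+ value (297.1 CPM), and the log2 fold change was -0.63 (SE 0.23, interval -1.11 to -0.14, adjusted p = 0.824, edgeR). Without eNOS-/- replicate 3 the log2 fold change of Lmo2 in Proliferative ECs was -0.98 and passed the test (adjusted p = 0.0290, edgeR), while 1.39% of 5237 genes were called in that fit. It left out the only eNOS-/- library of the higher numbers, so genotype and number range were partly mixed in it. Lmo2 in Proliferative ECs of eNOS+/+ averaged 290 CPM in the lower range and 374 CPM in the higher. The part of the range in this call was not tested.

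The number range of the library moved with the level of Lmo2. Among the libraries of the lower numbers, all ECs of eNOS+/+ held 297 CPM and those of eNOS-/- 196 CPM on average, and among those of the higher numbers the means were 373 and 297 CPM. Within each range, every eNOS-/- replicate was below every eNOS+/+ replicate for Lmo2 in Tip, Structural and Proliferative ECs alike. Of the 4304 genes tested in all 3 subtypes, 43 showed this order (0.999%), Lmo2 being the only one of the 10. The subtypes of a replicate share its library, so their orders are not independent. The split by range was made after the data were seen and is a description. With the range as a covariate, a choice made after the data were seen, the log2 fold change in all ECs was -0.47 (SE 0.18, adjusted p = 0.708, edgeR). The part of the number range in the result was not tested beyond this.

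Sox17 stood lower in eNOS-/- in every replicate pairing within both library ranges in Tip and Structural ECs, though not in Proliferative ECs. In Structural ECs it stood at 187, 348 and 374 CPM in the eNOS+/+ replicates and at 147, 131 and 258 CPM in the eNOS-/- replicates. These are the sums in which B cell markers were higher in every eNOS-/- replicate, whose part in the result was not tested. The groups overlapped through eNOS-/- replicate 3, with a log2 fold change of -0.84 (SE 0.31, interval -1.49 to -0.19, adjusted p = 0.849, edgeR). In Tip ECs the values were 138, 144 and 166 CPM against 116, 96.4 and 98.2 CPM, without overlap, and the log2 fold change was -0.54 (SE 0.28, interval -1.11 to 0.03, adjusted p = 0.984, edgeR). In Proliferative ECs they were 91.8, 198 and 142 CPM against 118, 81.1 and 192 CPM, an overlap in both directions. Both library ranges had lower eNOS-/- values in Tip ECs, Structural ECs and all ECs, and with the range as a covariate the log2 fold change in Structural ECs was -0.47 and that in Proliferative ECs turned to 0.16.

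Ets2 in Proliferative ECs stood at 111, 99.0 and 67.0 CPM in eNOS+/+ replicates and at 56.8, 50.7 and 25.6 CPM in eNOS-/- replicates. The groups did not overlap, with a log2 fold change of -0.84 (SE 0.36, interval -1.58 to -0.09, adjusted p = 0.718, edgeR). In Tip ECs, where Ets2 was highest, the values ran the other way at 207, 90.8 and 189 CPM against 241, 217 and 154 CPM, overlapping, with a log2 fold change of 0.34 (SE 0.30, interval -0.27 to 0.94, adjusted p = 0.985, edgeR). The log2 fold change was 0.073 without eNOS+/+ replicate 2 and 0.098 with the library range as a covariate. The difference of the genotype effect between subtypes was tested itself, over the 18 sums of 3 subtypes and 6 replicates. No gene of 7019 passed (0%), and Ets2 had the lowest p of the members (adjusted p = 1.00, edgeR). Without adjustment 241 genes had a p under 0.05.

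Counts of lower members are given beside the share of all genes tested that met the same rule. With 10 members, 1 gene is 10% of them. An unadjusted p under 0.05 with a lower eNOS-/- level was reached by 1 of 10 genes in Tip ECs (Lmo2; 3.14% of all genes tested). In Structural ECs it was reached by 2 (Sox17 and Lmo2, background 3.22%), among Proliferative ECs by 2 (Lmo2 and Ets2, 3.91%) and over all ECs by 2 (Sox17 and Lmo2, 3.52%). Every eNOS-/- replicate was below every eNOS+/+ replicate for 2 genes in Tip ECs (Sox17 and Lmo2; background 5.41%), 0 in Structural ECs (4.79%), 2 among Proliferative ECs (Lmo2 and Ets2, 5.43%) and 2 over all ECs (Lmo2 and Erg, 5%). The same order within each library range was met by 4 genes in Tip ECs (15.4% of all), 3 in Structural ECs (13.3%), 3 among Proliferative ECs (15.2%) and 3 over all ECs (14.1%). In the opposite direction, 0 of the 10 reached an unadjusted p under 0.05 in the fits without a covariate (background 1.81, 2.3, 2.47 and 2.26% in Tip, Structural, Proliferative and all ECs), and 0 had every eNOS-/- replicate above every eNOS+/+ replicate (4.94, 5.74, 5.36 and 5.39%). Within both library ranges, Fli1 and Sox7 were higher in eNOS-/- in Tip ECs (13.9% of all genes), Sox18 in Structural ECs (13.2%), Foxo1 in Proliferative ECs (14.1%) and 0 members over all ECs (13.4%). With the range as a covariate Foxo1 in Proliferative ECs had a log2 fold change of 0.76 (SE 0.34, adjusted p = 0.746, edgeR).

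**Figure D4:**
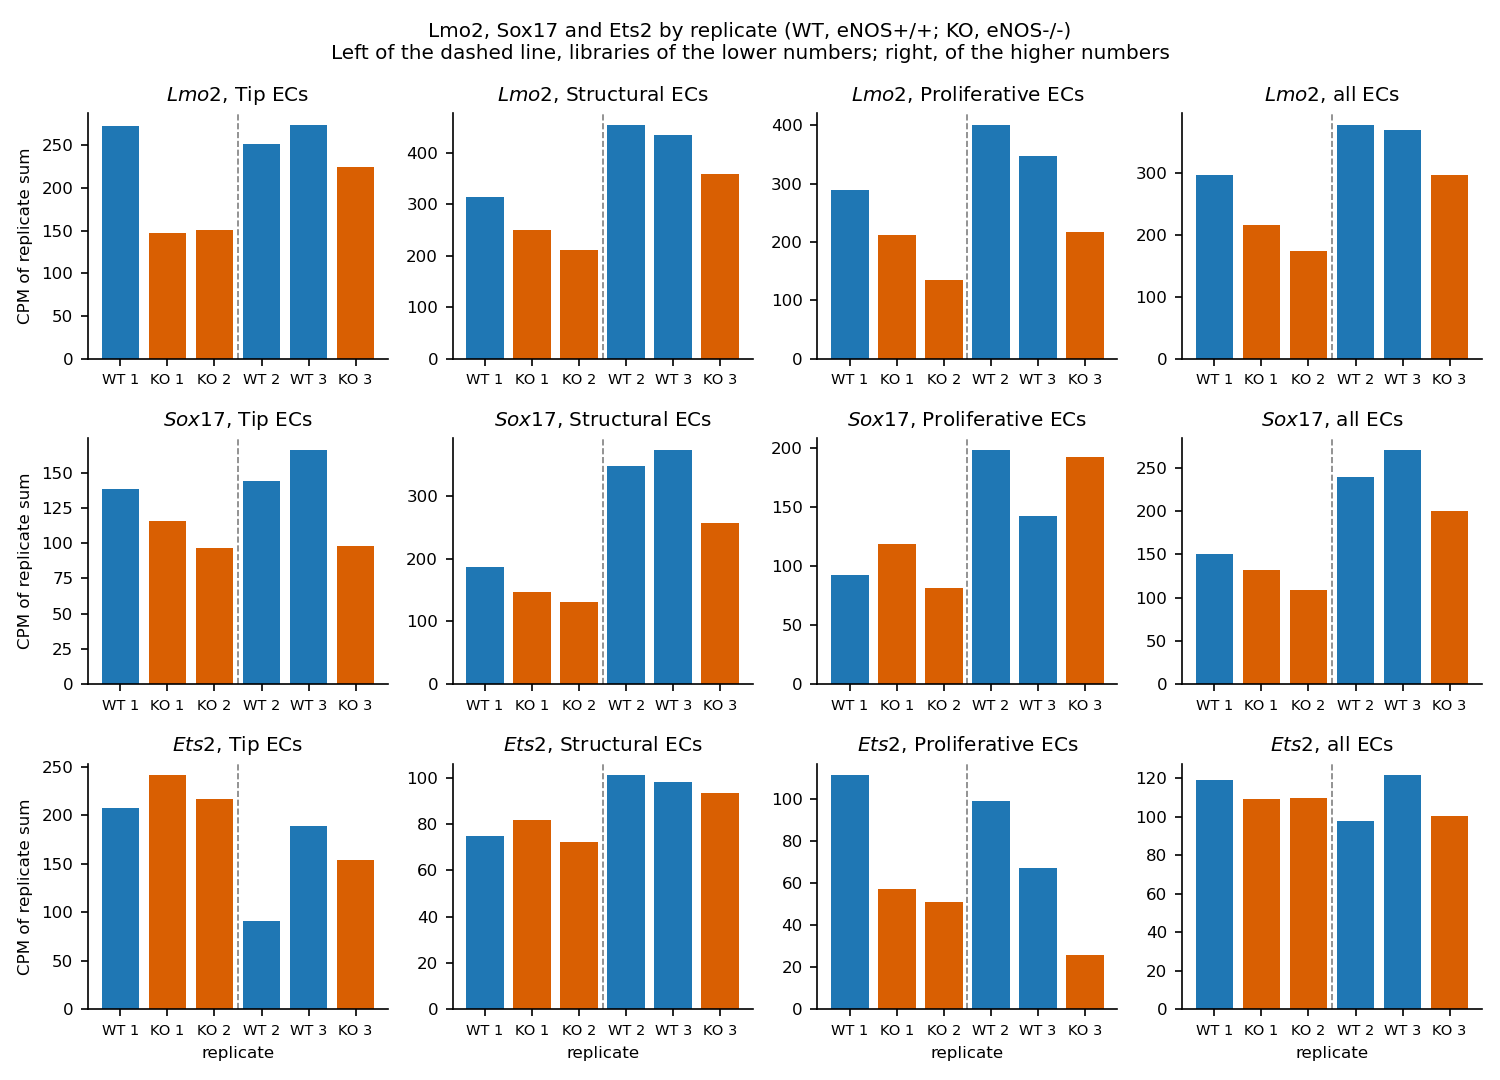
CPM of Lmo2, Sox17 and Ets2 (rows) in each replicate for Tip, Structural, Proliferative and all ECs (columns); bars are single replicates (blue, eNOS+/+; orange, eNOS-/-), and the dashed line parts the libraries of the lower numbers (left) from those of the higher numbers (right). On both sides of the line the orange bars of Lmo2 are lower than the blue ones in every column, as are those of Sox17 except in Proliferative ECs, whereas Ets2 shows it in Proliferative ECs.

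For the other genes the intervals bound the size of a difference. Erg over all ECs stood at 315, 280 and 286 CPM in eNOS+/+ replicates and at 267, 247 and 270 CPM in eNOS-/- replicates. These did not overlap, but the gap was small beside the error, with a log2 fold change of -0.18 (SE 0.18, interval -0.57 to 0.21, adjusted p = 0.964, edgeR). Fli1 over all ECs stood at 520, 644 and 468 CPM against 504, 396 and 489 CPM, overlapping, with a log2 fold change of -0.23 (interval -0.66 to 0.20). Ets1 stood at 685, 783 and 684 CPM against 753, 691 and 704.4 CPM, overlapping, with -0.01 (interval -0.41 to 0.39).

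Sox18, whose SOXF relative Sox17 had lower eNOS-/- values, stood at 210, 277 and 258 CPM against 295, 252 and 276 CPM over all ECs, with a log2 fold change of 0.14 (interval -0.27 to 0.55), or 0.039 without eNOS+/+ replicate 1. Sox7 stood at 124, 157 and 190 CPM against 171, 144 and 164 CPM (0.00, interval -0.45 to 0.46). Mef2c stood at 275, 236 and 223 CPM against 288, 249.01 and 213 CPM (0.03, interval -0.38 to 0.44), and Foxo1 at 69.1, 107 and 122 CPM against 90.7, 82.5 and 100 CPM (-0.16, interval -0.67 to 0.35). The genotypes overlapped for all 4, and differences within these intervals are not shown to be absent.

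**Figure D5:**
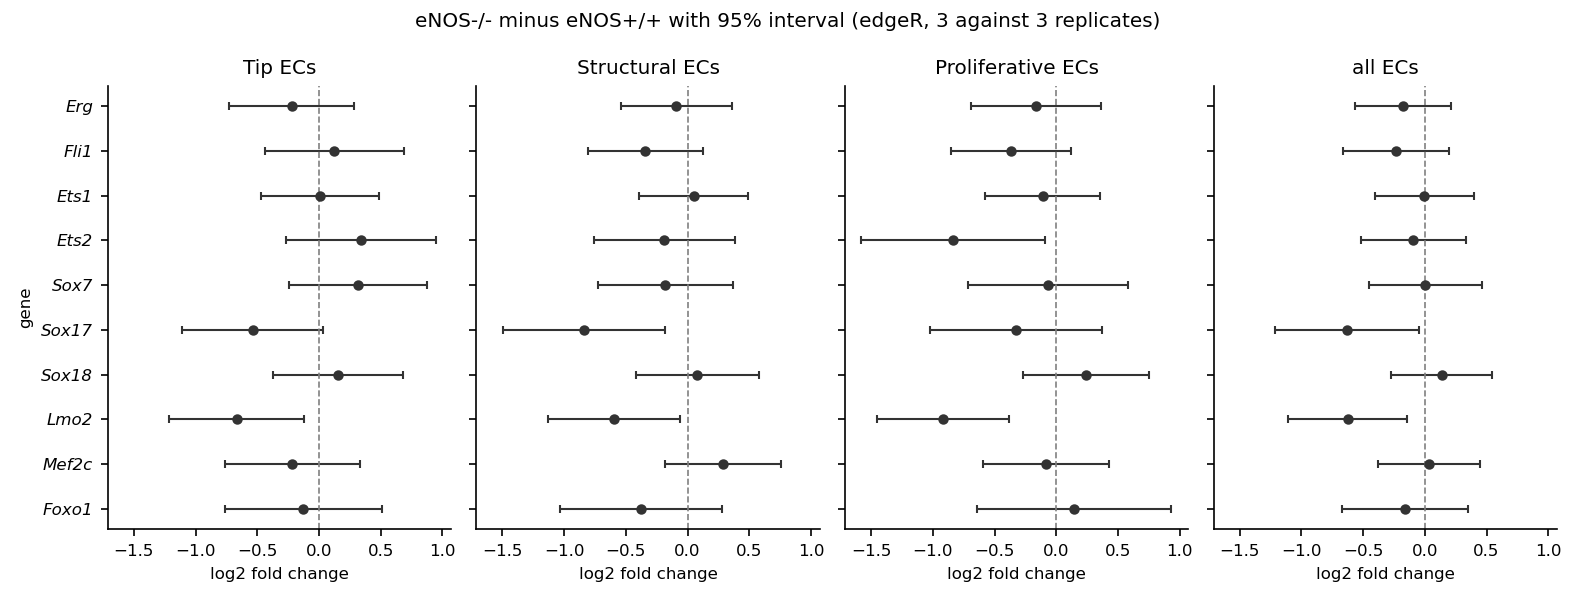
Log2 fold change (eNOS-/- minus eNOS+/+, x axis) of each gene with its 95% interval from edgeR in Tip, Structural, Proliferative and all ECs, from 3 against 3 replicates. The intervals of Lmo2 lie below 0 in each panel, those of Sox17 in Structural and all ECs and that of Ets2 in Proliferative ECs, none of them past the adjusted test.

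None of the genes that work with or under these factors passed the adjusted test either. Of all 9483 genes tested in all ECs, 4842 were higher and 4641 lower in eNOS-/-. The 7 LMO2 partners were all tested there, and 6 were lower and 1 higher with a median log2 fold change of -0.30. The lowest p was that of Tcf3, an E protein (-0.58, SE 0.21, adjusted p = 0.824, edgeR). Among 7 SOXF targets, 4 were higher and 3 lower in all ECs, with a median of 0.10. Plvap, the diaphragm protein of fenestrated endothelium, had the lowest p, with a log2 fold change of -1.35 in all ECs (SE 0.27, adjusted p = 0.433, edgeR) and -1.51 in Structural ECs (SE 0.30, adjusted p = 0.275, edgeR).

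The 13 genes bound by ERG, FLI1 or ETS1 had 6 higher and 7 lower members in all ECs and a median of -0.02. Of 8 FOXO1 targets tested there, 4 were higher and 4 lower, and Cdkn1b, a cell cycle inhibitor, had a log2 fold change of 0.48 (SE 0.20, adjusted p = 0.824, edgeR). Klf2, the flow-responsive factor that stands in the FOXO1 list and among the other endothelial factors, was at -1.12 in Proliferative ECs (SE 0.37, adjusted p = 0.512, edgeR). The 13 other endothelial factors tested in all ECs had a median of 0.06 with 8 higher and 5 lower, the 8 other ETS factors a median of 0.06 with 5 higher and 3 lower, and the 8 other MEF2 and FOXO factors and class IIa deacetylases a median of 0.02 with 4 in each direction. No gene of these lists was called in the main edgeR fits of Tip, Structural, Proliferative and all ECs. The lists were not read under the alternative settings given below.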

How the data were processed

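UMI counts per gene and cell were deposited by the authors for retinas of 3 eNOS+/+ and 3 eNOS-/- replicates at day 14. Per the labels and the methods of the study, reads were assigned to GRCm38 with kb-python and handled in Seurat 3 after bcl2fastq, cells with under 100 genes or over 10% mitochondrial UMIs were removed, and red blood cell and pigment epithelium clusters were taken out. The deposited metadata gave the percent of mitochondrial UMIs, the replicate and the cell type of each cell. The label "ECs" in that column is called Structural ECs here. The replicate column was followed for eNOS+/+ replicate 2, all 613 cells of which had the second library name of eNOS+/+ replicate 1. Doublets were not called anew. Whether the counting used strand is not given in the sources used here.

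Counts were summed over the cells of a label in each replicate, and levels were given for sums of at least 10 cells. Genotypes were compared by edgeR 4.0.16 in R 4.3.3 (filterByExpr, TMM, glmQLFit and glmQLFTest) with Benjamini-Hochberg adjustment over all genes tested at a limit of 0.05, once per EC subtype and once for all ECs. The interaction of genotype and subtype was tested over 18 sums with replicate and subtype as terms. By the methods of the study the replicates are separate pools of retinas, and replicates of 1 genotype differed by more than sampling noise. EC sums held 488367 to 2425603 UMIs per replicate. Shares of cells were computed after drawing each cell down to 500 UMIs (Python 3.11.15, numpy 2.4.6, pandas 2.3.3), with 95% Wilson intervals (scipy 1.17.1), and a count of 0 was read as allowing up to 3 counts. The steps were tested on simulated data with known changes in 200 genes. Those changes were larger than any log2 fold change between genotypes printed here for the members, and no effect of the library range was simulated. The simulation therefore does not cover differences of the members' size.

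The alternatives were DESeq2 1.42.0, RLE size factors, no low-count filter, the replicate number as a block, no mitochondrial genes, cells with at least 500 UMIs, 1 cell per barcode family sharing 11 bases, each replicate left out and, added after the data were seen, the library number range as a covariate. The genes and lists were chosen with earlier results of these data known. The text names every member, at most the 3 genes of lowest p in each list, and the 2 genes most like each member over 10 cell types (for Foxo1 not reported here), with exceptions stated where they occur.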

Additional observations from a re-analysis of the deposited data

Results flagged for a closer look

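Of 40 groups of 6 replicates (10 genes in 3 EC subtypes and all ECs), 2 held a replicate far from the others by Dixon's criterion, where chance alone gives about 1 group in 20. Foxo1 in Structural ECs was 132.3 CPM in eNOS+/+ replicate 3, a gap to its neighbour of 0.694 of the whole range, and Mef2c in Proliferative ECs was 153.5 CPM in eNOS-/- replicate 3, a gap of 0.785 of the range. The latter sum held 35 cells and 78192 UMIs, the fewest of the Proliferative sums. Leaving out eNOS+/+ replicate 3 moved no call for Foxo1, and neither gene passed the adjusted edgeR test between genotypes in any fit.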

How the results depend on the processing

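No gene of the 10 passed the adjusted edgeR test under any of the 14 alternatives except Lmo2 in Proliferative ECs without eNOS-/- replicate 3, so members called there ranged from 0 to 1. That fit held no eNOS-/- library of the higher numbers. Lmo2 was lower in eNOS-/- under all 14 in each comparison (log2 fold change -0.87 to -0.55 in Tip, -0.84 to -0.39 in Structural, -1.10 to -0.69 in Proliferative and -0.85 to -0.45 in all ECs). Of 560 values of the 10 genes, 39 changed sign, in 15 of 40 results, and the cause was not tested. With cells of at least 500 UMIs, Ets1 in Tip ECs was -0.015 and Sox7 in all ECs -0.0093. With 1 cell per barcode family, these were -0.0067 and -0.034, and Foxo1 in Proliferative ECs was -0.22. Sox7 in all ECs was -8.2e-05 without mitochondrial genes, and Ets1 in all ECs was 0.010 without the filter. With the library range as a covariate, Sox17 and Sox7 in Proliferative ECs were 0.16 and 0.30, and Ets1, Mef2c and Foxo1 in all ECs were 0.015, -0.066 and 0.074.

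Leaving out 1 replicate turned the sign or moved the log2 fold change by over 1.5 times in 31 of the 40 results, none of them called with all replicates. It changed signs within these ranges: in Tip ECs Fli1 -0.068 to 0.35, Ets1 -0.03 to 0.078, Mef2c -0.37 to 0.022 and Foxo1 -0.24 to 0.057. In Structural ECs, they were Sox18 -0.082 to 0.21 and Foxo1 -0.60 to 0.065. In Proliferative ECs, they were Erg -0.30 to 0.0025, Sox7 -0.26 to 0.21, Mef2c -0.21 to 0.0065 and Foxo1 -0.22 to 0.44. In all ECs, they were Ets1 -0.028 to 0.048, Sox7 -0.13 to 0.20, Mef2c -0.061 to 0.14 and Foxo1 -0.35 to 0.059.

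Over all genes, 1, 2, 1 and 2 were called in Tip, Structural, Proliferative and all ECs. Without the filter these were 8, 74, 10 and 84, and 4 for the interaction in place of 0. In Tip ECs, 2 genes were called by DESeq2, with cells of at least 500 UMIs, with 1 cell per family and with the library range. In Structural ECs these were 0 with cells of at least 500 UMIs or 1 cell per family and 10 with the library range, in Proliferative ECs 8 with 1 cell per family and 2 with the library range, and in all ECs 1, 1 and 9. Leaving out a replicate gave 0 to 25, 0 to 28, 0 to 73 and 0 to 78 genes, the highest without eNOS-/- replicate 3, the only eNOS-/- library of the higher numbers. The replicate number did not pair the samples, with correlations of deviations of 0.13, -0.07 and 0.11 for numbers 1 to 3 in all ECs. As a replicate block it gave 11 genes in Structural and 3 in Proliferative ECs, and Sox7 in Proliferative ECs turned to 0.063.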
